A study of Rattus norvegicus with 2 samples.

Results

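Connexins and adherens junction proteins couple neighbouring endothelial cells, and their transcripts were read in cultured rat cells labelled as endothelial, of 2 origins. The members were 4 connexin genes of gap junctions, Gja1, Gja4, Gja5 and Gjb2, and 2 genes of adherens junctions, Cdh2 and Ctnnb1. They were given as gene symbols, chosen with earlier results of these data known. Every probe set that the platform annotation pairs with exactly 1 of these symbols was taken, with no measured value used in that step. This gave 8 probe sets for 5 of the 6 genes, among 7006 probe sets for 4736 genes on the array. The gap junction members had 6 probe sets, Cdh2 had 2, and no probe set used here was paired with Ctnnb1, the gene of beta-catenin, so it has no value.

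Cells labelled as endothelium of the aorta and of the endocardium, the lining of the heart chambers, came from the same 2 rats. They were pooled within each origin and were cultured for 2 passages. Growth conditions and confluence were kept close between both cultures, per the labels, and the strain, sex and age of the rats are not given in the sources used here. Total RNA of each pool was hybridised to 1 Affymetrix rat U34A array, so each group had 1 array and 1 pool of cells. There is no replicate and no test, and all differences below describe these 2 arrays. In such bulk RNA, fewer cells of a type and less RNA per cell cannot be told apart.

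A gap junction is a cluster of channels that joins the interiors of adjacent cells. Connexin proteins assemble into half-channels, and half-channels of both cells dock to let ions and small metabolites pass. Connexin 43 (Gja1), connexin 40 (Gja5) and connexin 37 (Gja4) are the connexins known from vascular endothelium, while connexin 26 (Gjb2) is best known from liver, skin and the inner ear. An adherens junction is built on cadherins, which bind the same cadherin on the next cell and are linked by catenins to actin. Endothelial cells carry both VE-cadherin (Cdh5) and N-cadherin (Cdh2), and beta-catenin (Ctnnb1) also acts in the nucleus in Wnt signalling.

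A probe set is a group of short probes on the array that together give 1 intensity for a transcript, in array units on a linear scale. Intensities ran from -22058.8 to 103931.1 on the aortic and from -9718.5 to 96946.6 on the endocardial array, and 25.8% and 24.3% of gene probe sets were at or below 0. Values under a floor of 635.4, the median of all scaled intensities, were set to it for ratios, and a probe set at or under it on both arrays has no ratio. A second limit was the highest of 38 background control probe sets, 1743.4. A log2 ratio is endocardial over aortic, so a negative one means a brighter aortic array, and a fold against a limit is a lower bound. Of 2935 genes with a ratio, 174 (5.93%) were at least 2-fold higher and 122 (4.16%) at least 2-fold lower on the endocardial array. With that control as the floor, 76 of 1904 genes (3.99%) were higher and 45 (2.36%) lower.

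The labelled cell type was checked against its defining markers. Of 10 endothelial markers 7 had a probe set and 4 were above the floor on each array, while 3 exceeded the highest background control on the aortic array and 1, Thbd, on the endocardial array. The angiotensin-converting enzyme Ace had a log2 ratio of -1.16. The others were thrombomodulin, Thbd (-0.46), the nitric oxide synthase Nos3 (-0.06) and the VEGF receptor Flt1 (0.35). Neither array was above the floor for von Willebrand factor, Vwf, for Pecam1 or for Kdr, which define endothelium, and Cdh5, Tek and Tie1 were not analysed here. A summed intensity of markers, here and below, adds the median intensity over the probe sets with a ratio of each marker, with values below 0 set to 0, and is compared between the arrays within a list only. For the 4 endothelial markers it was 8441 on the aortic array and 6312 on the endocardial array.

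The starts of the 4 connexin genes are shown because the connexins are the larger group of members and gave unlike readings. Each line is the 100 bases before the gene start, 5′ to 3′ on the strand of the gene, from the RefSeq table of assembly GRCr8, which held 5 of the 6 members. Capitals mark matches on either strand to the AP-1 motif TGANTCA, the GC box GGGCGG and the TATA-like run TTAAAA.
Gja1, chr20:36302464-36302563, + strand: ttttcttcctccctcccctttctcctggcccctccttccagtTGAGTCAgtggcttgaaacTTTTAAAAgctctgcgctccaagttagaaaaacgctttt
Gja4, chr5:144920325-144920424, - strand: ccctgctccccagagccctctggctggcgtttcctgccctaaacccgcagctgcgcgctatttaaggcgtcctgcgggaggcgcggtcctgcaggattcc
Gja5, chr2:187291127-187291226, + strand: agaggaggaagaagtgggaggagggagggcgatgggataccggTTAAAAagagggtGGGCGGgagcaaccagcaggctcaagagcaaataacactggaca
Gjb2, chr15:35381954-35382053, - strand: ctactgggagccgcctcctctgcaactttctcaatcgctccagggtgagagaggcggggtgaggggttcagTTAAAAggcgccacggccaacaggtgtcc

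In these windows TTAAAA was found before Gja1, Gja5 and Gjb2, and it is present in 6.90% of all 33469 such windows of 100 bases. In Gja1 it was found on both strands as 1 run of overlapping matches. The AP-1 motif was found before Gja1 alone among the 4 and is in 2.47% of windows, and the GC box was found before Gja5 and is in 21.6%. No match was found before Gja4. The motifs were chosen after these sequences had been seen, and a match describes letters, not a bound site. The arrays measured transcripts and not the starts of genes.

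The gap junction members read differently from one another. Gjb2 was brighter on the aortic array, Gja1 was somewhat brighter there, Gja5 gave different readings from its 3 probe sets, and both values of Gja4 were under the floor. Of the 3 with a ratio, 1 was at least 2-fold lower on the endocardial array (background 4.16%) and 0 were at least 2-fold higher (background 5.93%).

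Gjb2, the gene of connexin 26, had 1 probe set (X51615_g_at), at 5643 on the aortic array and 515.1 on the endocardial array. The aortic value was thus above both limits, and the endocardial value was under the floor. The aortic array was at least 8.88-fold brighter against the floor and at least 3.24-fold brighter against the highest background control. The log2 ratio against the floor was -3.15, a bound whose place among other genes is not resolved. Of 1077 probe sets within 0.5 log2 units of its mean brightness, 58 (5.39%) were at least 2-fold lower on the endocardial array.

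The identity of the Gjb2 probe set carries a limit. The array holds another probe set named for the same source sequence (X51615_at), which the platform annotation pairs with the protease inhibitor gene Pzp and not with Gjb2. It read 9.51 on the aortic array and -32.2 on the endocardial array, so it did not show the aortic signal. Over the array, 906 pairs of probe sets share a source in this way, 1 of them with the suffix _g_at. In 464 pairs the _g_at probe set was above the highest background control on at least 1 array, and in 86 of these (18.5%) its partner had both values under the floor, as here.

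Connexin 26 is abundant in many epithelia, so epithelial markers are given beside it. Of the 8 epithelial and mesothelial markers 5 had a probe set. The keratins Krt8, Krt18 and Krt19 and the adhesion molecule Epcam were at or under the floor on both arrays. Wt1, a mesothelial transcription factor, was the only one with a ratio, from 1 of its 3 probe sets, at 907.7 on the aortic array and 1933 on the endocardial array. These are also the summed intensities of the list. Its other probe sets were under the floor on both arrays, at 588.6 and 425.4 for 1 and below 0 for the other. The part of such cells in the Gjb2 difference was not tested.

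Gja1, the gene of connexin 43, had 1 probe set (rc_AI029183_s_at), at 2843 on the aortic array and 1816 on the endocardial array. Both values were above the highest background control, the endocardial one by a small margin. The aortic array was 1.57-fold brighter, with a log2 ratio of -0.65. Differences of this size were common, since 290 of 2935 genes had a ratio as low and 128 of 1041 probe sets of like brightness did. Where 1 gene had several probe sets that exceeded the floor on both arrays (625 genes, 1432 probe sets), their log2 ratios had an SD of 0.394 within a gene. That SD describes probe sets and leaves out any difference between cultures.

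Gja5, the gene of connexin 40, known from arterial endothelium and the cardiac conduction system, had 3 probe sets. The brightest (M76535cds_at) read 5017 on the aortic array and 4450 on the endocardial array, a log2 ratio of -0.17, or 1.13-fold brighter on the aortic array. The second (AF022136_at) read -130.6 on the aortic array and 1240 on the endocardial array, which is at least 1.95-fold brighter on the endocardial array against the floor. Its endocardial value was under the highest background control, so against that limit it gives no fold. The third (M76535cds_g_at) read -519.3 and -288.5, under the floor on both arrays.

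The readings for Gja5 therefore differ in both level and direction. The brightest and the third probe set share a source sequence. Among 305 such pairs whose plain probe set was above the highest background control on both arrays, both values of the _g_at partner were under the floor in 29 (9.51%). The median log2 ratio over the 2 probe sets with a ratio was 0.40, and it was -0.17 with the brightest probe set alone, so the direction of Gja5 depends on which probe set is read.

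Gja4, the gene of connexin 37, had 1 probe set (M76532cds_at), at -799.5 on the aortic array and -297 on the endocardial array. It lay under the floor on both arrays and has no ratio. A value below 0 gives no level, and it does not show that the transcript was absent.

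**Figure D1:**
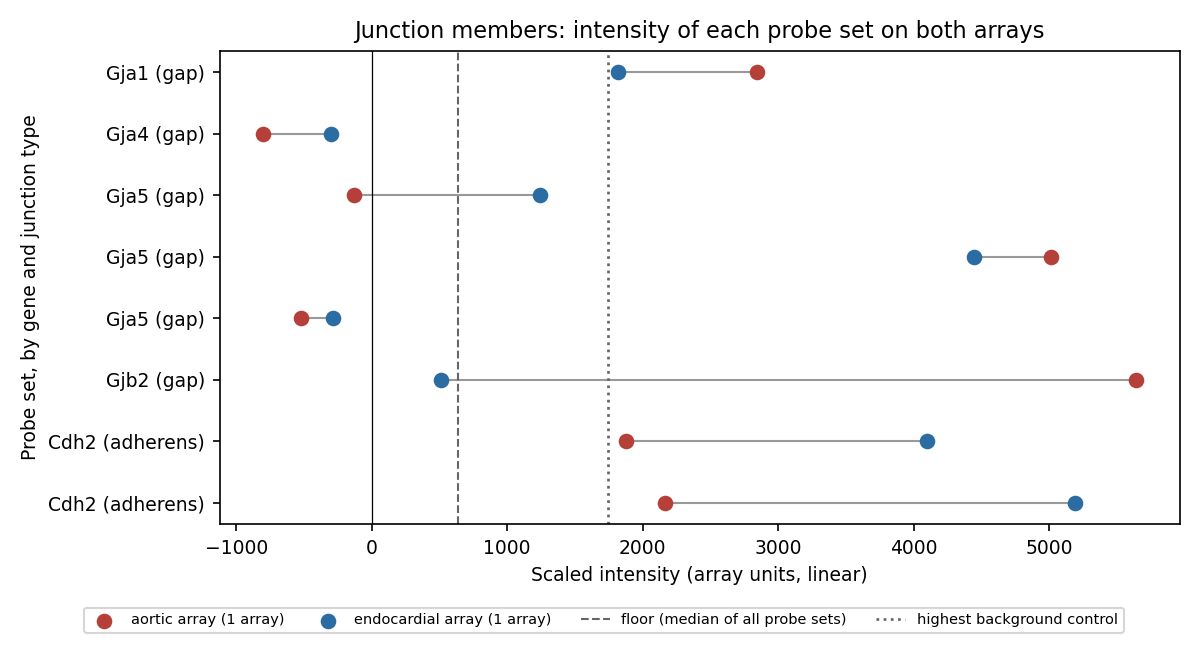
Scaled intensity (array units, linear axis) of each of the 8 member probe sets on the aortic and the endocardial array, with a line joining both values of a probe set, and with the floor (635.4) and the highest background control (1743.4) as vertical lines. The Gjb2 probe set spans from under the floor on the endocardial array to 5643 on the aortic array, both Cdh2 probe sets run the other way, and the 3 Gja5 probe sets lie at different levels.

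The adherens junction members had values for Cdh2 alone, and Cdh2 was brighter on the endocardial array with both of its probe sets. N-cadherin, its product, joins endothelial cells to each other and to mural cells. It is also the main cadherin of smooth muscle cells, fibroblasts and cardiomyocytes. The first probe set (AF097593_at) read 1875 on the aortic array and 4102 on the endocardial array, 2.19-fold brighter on the endocardial array. The second (AF097593_g_at) read 2162 and 5192, 2.40-fold brighter. All 4 values were above the highest background control, and both endocardial values exceeded both aortic values.

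The log2 ratios of the Cdh2 probe sets were 1.13 and 1.26, with a median of 1.20, and 115 of 2935 genes had a ratio as high. Cdh2 was thus the 1 adherens junction member with a ratio and was at least 2-fold higher, against a background of 5.93% of genes. Of 981 probe sets of like brightness to the first, 59 were as high, and of 918 like the second, 51 were. The 2-fold call held with no floor and with the highest background control as the floor, where the Cdh2 ratio stayed at 1.20. It did not hold in 2 other settings. The 75th percentile as the floor lay above both aortic values and gave a bound of 0.84, and a pseudocount gave 0.99. Both probe sets come from 1 source sequence and are not independent readings. Among 372 such pairs with all 4 values above the floor, the median difference between both log2 ratios was 0.223.

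Markers of other cells that make N-cadherin went in more than 1 direction. Among 6 smooth muscle markers with a ratio, 2 were at least 2-fold higher in endocardial cells, the myosin light chain Myl9 (log2 ratio 1.54) and the integrin Itga8 (1.21), and 1 was lower, the myosin heavy chain Myh11 (-1.99), with a median of 0.84 and summed intensities of 90618 and 140661. The calponin Cnn1 had a log2 ratio of 0.97, the actin Acta2 0.71 and Tagln 0.23. Acta2 (26902 and 50039) and Tagln (49584 and 58742) were bright on both arrays. Against the highest background control 1 of the 6 smooth muscle markers was at least 2-fold higher and 0 were lower. Itga8 was at least 1.07-fold brighter on the endocardial array against that limit. Of 7 fibroblast markers, 1 was higher, periostin, Postn (2.98), and 1 lower, decorin, Dcn (-3.80). Their median was -0.17, and the summed intensities were 251833 and 220603. The collagen genes Col1a1 (74687 and 68163), Col1a2 (77303 and 64332) and Col3a1 (65793 and 58442) were bright on both arrays. Their log2 ratios were -0.06, -0.265 and -0.17, with 0.21 for Lum and -0.38 for Pdgfra. Of 5 cardiomyocyte markers with a ratio, 1 was lower, the myosin Myh6 (-1.32), and 0 were higher, with sums of 6349 and 5713. Myh6 had a ratio from 1 of its 3 probe sets, and both values, 1589 and 569.4, were under the highest background control. The others were Tnnt2 (0.305), Tnni3 (0.15), Myh7 (0.07) and Nppa (-0.18). Among the 5 only Tnni3 (2176 and 2416) exceeded that control, and against it 0 were lower. The ratios of Myh11 and Myh6 rest on endocardial values under the floor. The part of these cells in the Cdh2 difference was not tested.

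Macrophage markers were brighter on the endocardial array, with 4 of 6 at least 2-fold higher, 0 lower and summed intensities of 5626 and 46077. Lysozyme, Lyz2, made up most of the endocardial sum (287.8 and 33620). Against the highest background control it was the 1 marker of 5 at least 2-fold higher (3.99% of all genes). The part of macrophages in the junction values was not tested.

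**Figure D2:**
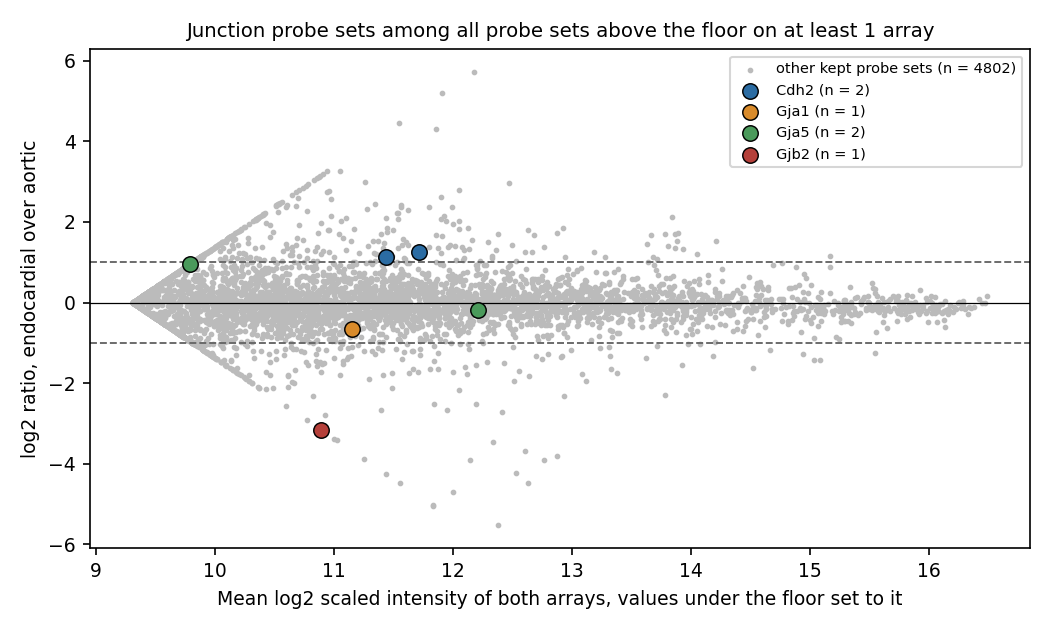
Log2 ratio (endocardial over aortic) against the mean log2 intensity of both arrays for the 4808 probe sets above the floor on at least 1 array, with the 6 member probe sets that have a ratio in colour and 2-fold differences as dashed lines. Gjb2 lies on the lower edge of the cloud, where the endocardial value is set to the floor. Both Cdh2 points lie just above the upper 2-fold line, and Gja1 and both Gja5 points lie between the lines.

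With 2 arrays, a likeness between genes is a likeness of 1 number, the log2 ratio. Among 1248 other genes with all values above the highest background control, 53 lay within 0.1 of Gja1, and the nearest were the lysosomal protease Ctsl (-0.64), the opsin Opn1mw (-0.65) and the phosphoglucomutase Pgm1 (-0.64). Within 0.1 of Cdh2 lay 9 genes, and the nearest were Tbc1d23 (1.16), the annexin Anxa4 (1.24) and the matrix Gla protein Mgp (1.15). Gjb2 and Gja5 each had a value under the floor and were not matched.

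The rest of the gap junction family gave few readings above background. Of 23 listed connexin and pannexin genes 9 had a probe set and 7 had a ratio. Of the 7, 1 (Gjb2) was at least 2-fold lower (background 4.16%) and 0 were higher (background 5.93%). Their median, -0.37 (-0.02 over all genes), was the value of Gja6, which was dim on both arrays. Besides the members, the genes with a ratio were Gja3, a connexin of the lens (1122 on the aortic array and 1004 on the endocardial array), Gja6 (842.7 and 654.1), Gjb1, the hepatic connexin 32 (1701 and 1733), and Gjb5. All values of the first 3 were under the highest background control. Gjb5, the gene of connexin 31.1, read 2115 and 2130 with 1 probe set, 1145 and 0.999 with another, and was under the floor with the third. The neuronal connexin gene Gjd2 was at or under the floor on both arrays.

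Among adherens junction genes Cdh2 was the highest and Nectin1 the lowest. Of 32 listed genes 14 had a probe set and 8 had a ratio, with a median of 0.09. Of the 8, 1 was at least 2-fold higher (Cdh2, background 5.93%) and 1 lower (Nectin1, background 4.16%). Nectin1, an immunoglobulin-like adhesion molecule, read 1551 on the aortic array and 444.8 on the endocardial array, at least 2.44-fold brighter on the aortic array against the floor, with both values under the highest background control. Its intracellular partner afadin, Afdn, had a log2 ratio of -0.54, with 3 probe sets from -0.80 to -0.45, all under that control. Plakoglobin, Jup, which can take the place of beta-catenin at the cadherin, read 1847 and 1736. The actin cross-linker Actn4 was at 4658 and 7004, a log2 ratio of 0.59. The phosphatases Ptpn1, Ptprf and Ptprm, which act on cadherin and catenin complexes, had log2 ratios of 0.27, 0.28 and -0.47. The 5 probe sets of Ptpn1 ran from -0.26 to 1.05, and both Ptprm values were under the highest background control. The other classical and related cadherins with a probe set, Cdh4, Cdh6, Cdh8, Cdh17 and Cdh22, were at or under the floor on both arrays.

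Tight junction and desmosome genes were thinly covered. Of 28 listed genes 6 had a probe set and 3 had a ratio, none at least 2-fold different, with a median of -0.29. The scaffold ZO-1, Tjp1, which also binds the tail of connexin 43, read 5696 on the aortic array and 4675 on the endocardial array, a log2 ratio of -0.29. Occludin, Ocln, had a log2 ratio of -0.52 with both values under the highest background control, and the claudin Cldn7 had 2 probe sets of opposite sign.

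Kinases and trafficking proteins that act on connexins went both ways. Of 21 listed genes 12 had a ratio, from -0.57 to 1.08, with a median of 0.002. Prkcd, a protein kinase C isoform, was the 1 gene at least 2-fold higher (background 5.93%) and 0 were lower (background 4.16%). Its 2 probe sets had log2 ratios of 0.64 and 1.52, from aortic values of 1349 and 1515 that were under the highest background control. Against that control the median intensity of its probe sets was at least 1.85-fold brighter on the endocardial array. Casein kinase 1 alpha, Csnk1a1, was the lowest (-0.57, from 9478 to 6371). The ubiquitin ligase Nedd4 (-0.04) and caveolin 1, Cav1 (0.00), which bind connexin 43, were bright on both arrays, at 23676 and 23034 for Nedd4 and 6862 and 6863 for Cav1.

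Although Ctnnb1 itself has no value, 10 of 28 listed partners and targets of beta-catenin had a ratio, with a median of -0.03. Of these 1 was at least 2-fold lower (background 4.16%), the transcription factor Myc, and 0 were higher (background 5.93%). Its 2 probe sets had log2 ratios of -1.46 and -0.71, the gene value was -1.08, and it was not past 2-fold with the brightest probe set alone or with the highest background control as the floor. Cyclin D1, Ccnd1, another target, had 5 probe sets, of which 1 was at or under the floor on both arrays and 4 had log2 ratios from -0.32 to 0.98 with a median of 0.61. The Wnt receptor Fzd1 was at 8793 on the aortic array and 13796 on the endocardial array (0.65), and Fzd2 at 5531 and 4688 (-0.24). In the destruction complex that degrades beta-catenin, the kinases Gsk3a and Gsk3b had log2 ratios of 0.34 and 0.18, and the scaffold Axin1 -0.46. Apc, with a ratio from 1 of its 3 probe sets, was at least 1.19-fold in favour of the aortic array. All values of Gsk3b and Apc were under the highest background control. Sfrp4, a secreted Wnt inhibitor, had the highest ratio, at least 1.94-fold brighter on the endocardial array against the floor, with both values under the highest background control.

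**Figure D3:**
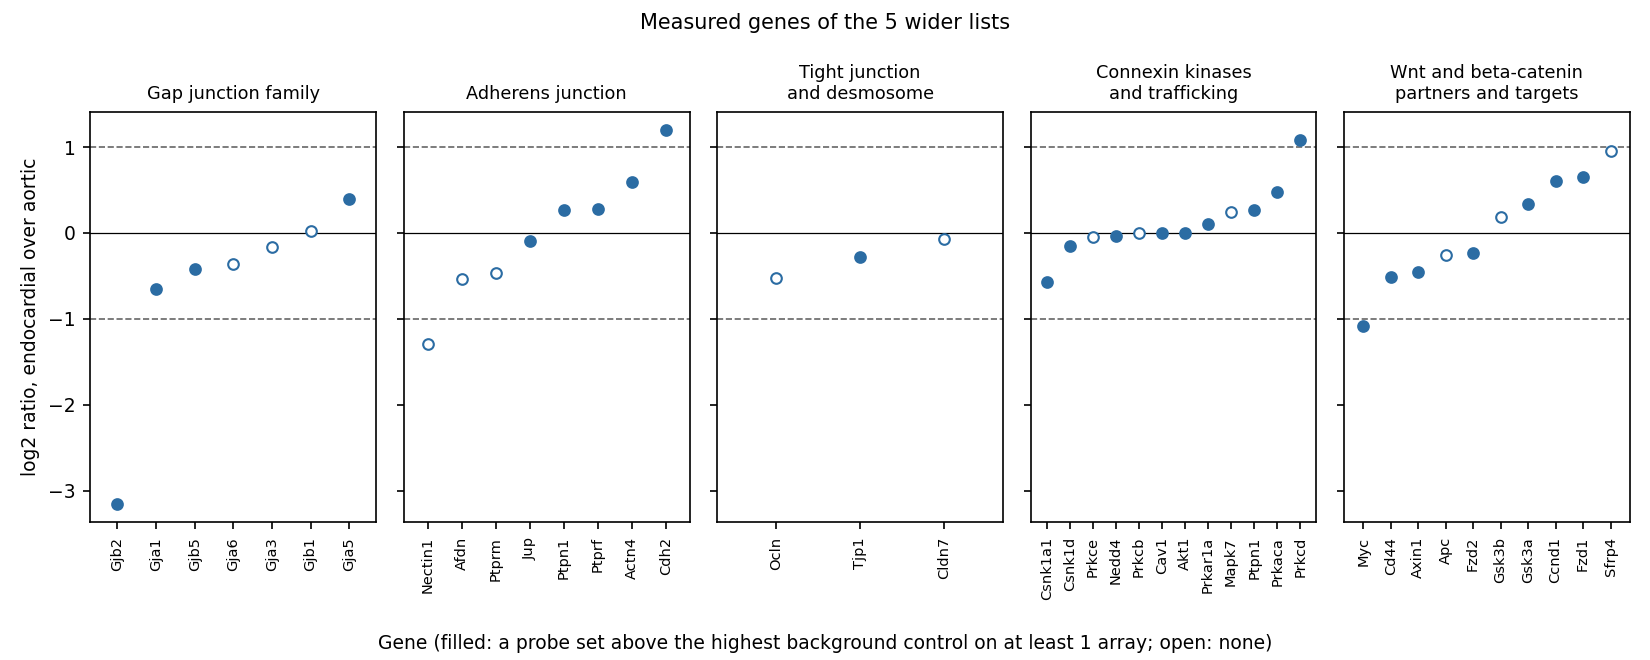
Log2 ratio (endocardial over aortic) of each measured gene of the 5 wider lists, 1 point a gene, with dashed lines at 2-fold and open points for genes with no probe set above the highest background control. Gjb2 is the lowest point of all 5 lists and Cdh2 the highest, and most other genes lie between the dashed lines.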

How the data were processed

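Affymetrix rat U34A arrays were read for 1 aortic and 1 endocardial sample. The value table that the authors deposited holds 1 intensity per probe set and array, linear and partly negative. Its software is not given in the sources used for this work. Members and lists were chosen with earlier results of these data known.

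The 59 control probe sets were left out, and the 8740 others were scaled to a shared 2% trimmed mean (factors 1.00 and 0.999). The platform annotation gave 1 symbol to 7006, several to 308 and none to 1426, with symbols looked up in a RefSeq table of GRCr8 (0 changed). Of the 8740 probe sets 4808 passed the floor on at least 1 array. A gene's value is the median log2 ratio of its kept probe sets. Named genes were all members, and in each list those past 2-fold and the highest and lowest; further genes were chosen after seeing values. Steps were checked on simulated data in Python 3.11.15 (numpy 2.4.6, pandas 2.3.3, scipy 1.17.1, statsmodels 0.14.6). The simulation changed bright genes only, by more than 2-fold, so it does not cover dim or negative values or differences near 2-fold. Each of 10 alternatives changed 1 choice of scaling, floor, pseudocount or probe set.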

Additional observations from a re-analysis of the deposited data

How the results depend on the processing

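No paired analysis was possible because each group had 1 array. The 4 scaling alternatives (no rescaling, quantile, median centring, loess) moved no member's log2 ratio by more than the SD among probe sets of a gene and no count by over 1.5 times; the other settings changed some. With the floor at the 75th percentile Gja1 was at -0.14, Gja5 at -0.17 and Gjb2 at -1.13. With that control as the floor (highest background control) Gja5 was at -0.17 and Gjb2 at -1.70. Gja5 was at -0.17 also with no floor and with the brightest probe set, and with the pseudocount Gjb2 was at -2.45. Cdh2 ranged from 0.84 (75th percentile floor) to 1.26 and was under 2-fold with that floor and with the pseudocount (0.99), so 0 adherens members and 0 genes of the adherens list were then higher. With plain probe sets only, Gja1 and Gjb2 had no value, 0 gap junction members and 0 genes of that family were lower, and 2 adherens genes were higher (Cdh2 and Ptpn1). With no floor 2 of the gap junction family were lower, 1 tight junction gene was higher, 2 connexin kinases were higher and 1 lower, and 1 Wnt gene was higher. The kinase list had 0 higher with the pseudocount and under both higher floors; the adherens list had 0 lower under both higher floors; the Wnt list had 0 lower under both higher floors, with the pseudocount and with the brightest probe set. Over all genes, 45 were higher and 40 lower with the 75th percentile floor, 76 and 45 with the control floor, and 342 and 410 with no floor. Dim signal limits these values: 6 of 8 member probe sets had a ratio, and 4 were above the highest background control on both arrays.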
